A study of Mus musculus with 15 samples.

Results

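Depp1, its upstream FoxO transcription factors and genes of the autophagy pathway were followed in mouse lungs after 6 h of mechanical ventilation with or without hydrogen sulfide (H2S). The set held 10 genes (Depp1, Foxo1, Foxo3, Sqstm1, Map1lc3b, Gabarapl1, Ulk1, Irs2, Wipi1 and Bnip3l) of 19934 genes that had a row with 1 gene symbol on the array. Where a gene had more than 1 such row, the row with the highest mean log2 intensity over the 15 arrays stood for it. Depp1 was selected on its intensities in these mice, which were highest with H2S, so its levels are a description and carry no test. The other 9 genes were selected by their place in the pathway, at a time when results of these data were known.

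RNA was extracted from the inferior lobe of the right lung. The animals were male C57BL/6N mice, 5 in each of 3 groups, and each had 1 array. For 6 h the H2S ventilated mice received 80 ppm H2S in synthetic air, with tidal volumes of 12 ml/kg and 2 cm H2O of positive end-expiratory pressure. The air ventilated mice received synthetic air alone under the same settings, and the control mice were left to breathe synthetic air on their own for 6 h. All 3 groups, the controls included, were under ketamine and acepromazine anaesthesia with an arterial line and a tracheal tube. No age is given in the labels, and mice that breathed H2S without ventilation are not analysed here. The values are array intensities on a linear scale, and differences are given on the log2 scale as a mean of 5 mice minus a mean of 5 mice. The median intensity of an array lay between 179.8 and 185 in H2S ventilated mice, between 179 and 187 in air ventilated mice and between 184 and 187 in control mice. The labelled tissue was checked by 8 marker genes of alveolar type II cells, whose mean lay between 12.30 and 12.39 on the log2 scale in H2S ventilated mice, between 12.30 and 12.40 in air ventilated mice and between 12.34 and 12.44 in control mice.

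Autophagy encloses cytoplasm, organelles or protein aggregates in a double membrane, the autophagosome, and delivers them to the lysosome for breakdown. FoxO proteins are forkhead transcription factors that insulin and growth factor signalling keeps in the cytoplasm through the kinase Akt. When that signal is low they enter the nucleus and switch on genes of stress resistance, fuel use and autophagy. Depp1, first described as a decidual protein induced by progesterone, is a FoxO target that has been linked to autophagy in human cells. In the lung, autophagy is known to act in epithelium, endothelium and macrophages under mechanical and oxidative stress. The arrays measured transcripts, and neither protein nor the flow of material through autophagosomes was measured.

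The upstream sequences of the set were read from the RefSeq promoter table (mouse build GRCm38.p6), which held 9 of the 10 genes. Both shown here were chosen because they were the only ones of the 9 that held any of the 7 motifs searched. Each line gives the 250 bases before the annotated start, 5′ to 3′ on the gene's own strand, with the matched motif in capitals. The Depp1 stretch lies at chr6:116650434-116650683 on the plus strand and the Irs2 stretch at chr8:11008930-11009179 on the minus strand.
Depp1: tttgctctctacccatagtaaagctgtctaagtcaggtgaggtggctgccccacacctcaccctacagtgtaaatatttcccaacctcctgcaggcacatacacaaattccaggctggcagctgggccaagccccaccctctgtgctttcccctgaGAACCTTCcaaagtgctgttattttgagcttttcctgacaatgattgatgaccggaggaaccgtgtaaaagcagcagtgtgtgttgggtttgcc
Irs2: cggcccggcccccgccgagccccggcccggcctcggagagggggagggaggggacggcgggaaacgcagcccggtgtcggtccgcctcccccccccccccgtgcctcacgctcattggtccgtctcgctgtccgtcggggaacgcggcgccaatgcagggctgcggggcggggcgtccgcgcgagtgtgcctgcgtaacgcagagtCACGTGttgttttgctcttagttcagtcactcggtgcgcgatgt
The capitals in Depp1 mark a heat shock element (GAANNTTC) whose first base lies at position -94 from the start, and those in Irs2 mark an E-box (CACGTG) whose first base lies at position -44. Both letter patterns were searched on both strands of all 32851 promoters of the table, where the heat shock element occurred in 6.69% and the E-box in 6.02%. The forkhead motif GTAAACA, the letters that FoxO proteins are known to prefer, was in 0 of the 9 upstream stretches and in 3.17% of all promoters. Also in 0 of the 9 were AP-1 (TGANTCA, 6.75% of all promoters), the cAMP response element (TGACGTCA, 1.55%), the C/EBP-ATF element (TTGCATCA, 0.791%) and the paired glucocorticoid response element (0.387%). A match is a description of letters in this window and not evidence of a bound site.

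Depp1 stood higher in every H2S ventilated mouse than in any other mouse. Its intensities were 1760.0, 1979, 2163, 2863 and 2895 in H2S ventilated mice. They were 654, 803, 949, 1008 and 1092 in air ventilated mice, and 500.1, 583, 664, 737 and 801 in control mice. The lowest H2S ventilated mouse was thus above the highest air ventilated mouse, while the air ventilated and control mice overlapped, with the air ventilated mouse labelled 34_22 below 3 of the 5 controls. The log2 level averaged 11.16 ± 0.32 with H2S, 9.79 ± 0.29 with air and 9.34 ± 0.27 in controls (SD, n = 5 each). The log2 difference was 1.82 between H2S ventilation and control (SE 0.17, 3.53-fold) and 1.37 between H2S and air ventilation (SE 0.17, 2.58-fold). Between air ventilation and control it was 0.45 (SE 0.17, 1.37-fold). The labels end in numbers that form 2 runs, 1 to 12 with 3 mice per group and 20 to 28 with 2 mice per group, and the meaning of the numbers is not given. Within the first run the Depp1 differences were 1.93, 1.40 and 0.53 in the same order of comparisons, and within the second they were 1.65, 1.31 and 0.34.

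**Figure D1:**
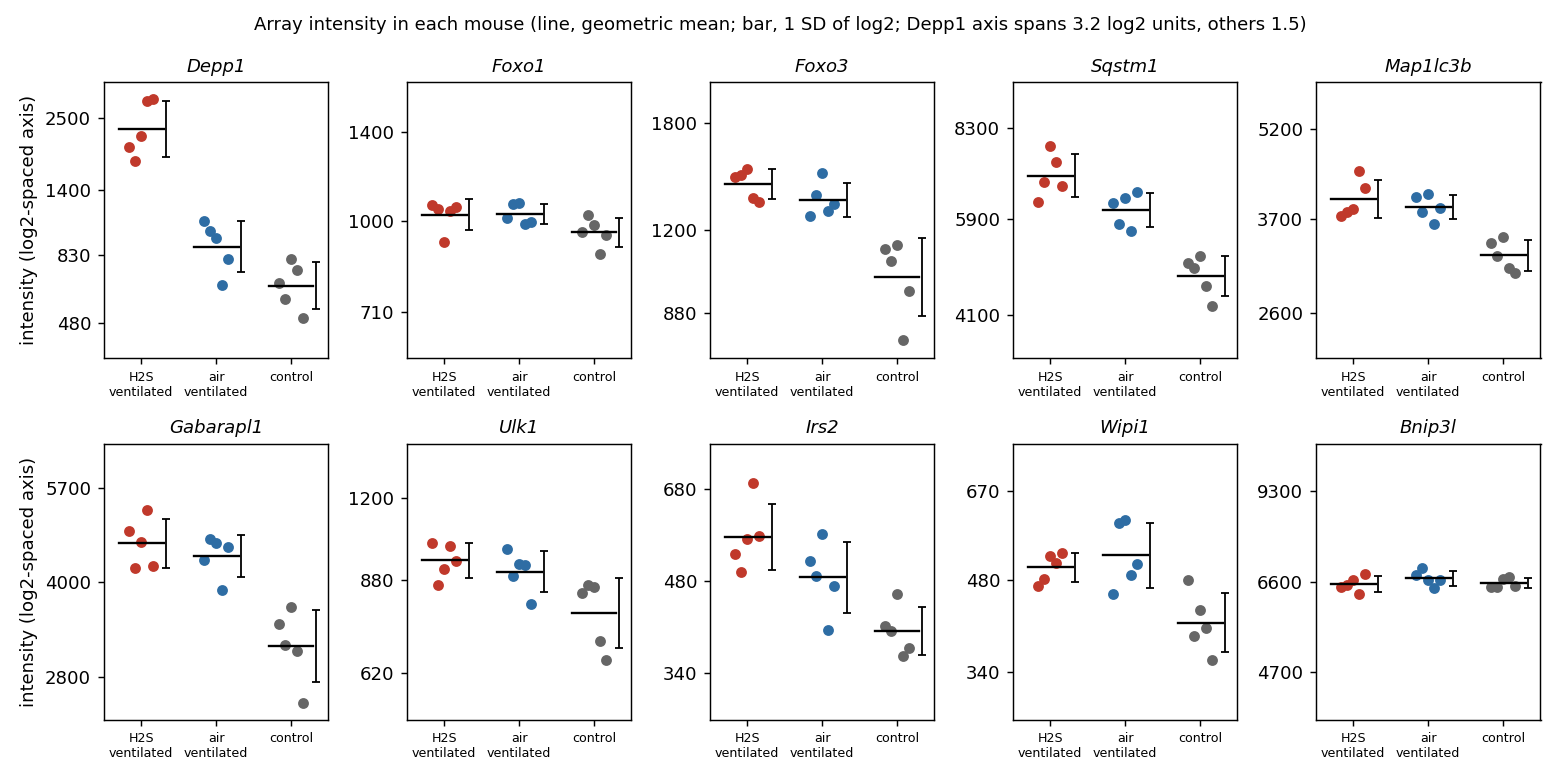
Array intensity of the 10 genes in each mouse (vertical axis spaced by log2, 1 panel per gene, the Depp1 panel with a longer axis), with H2S ventilated mice in red, air ventilated mice in blue and control mice in grey. Lines are geometric means of 5 mice and bars are 1 SD of log2. For Depp1 the H2S ventilated mice lie between 1760.0 and 2895 and all others at or below 1092, for Foxo3, Sqstm1, Map1lc3b and Gabarapl1 both ventilated groups lie above every control, and for Bnip3l the 3 groups overlap.

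Outside Depp1, the genes that passed did so between ventilated and control mice, and none passed between the ventilated groups. With H2S ventilation against control, 5 of the other 9 genes rose, 0 fell and 4 did not pass the test (limma, adjusted p under 0.05 over all rows of the array). Among all 19934 genes, 4.68% rose and 4.07% fell in that comparison. In 5 of the 9 genes the H2S ventilated mice did not overlap the control mice, against 9.33% of all genes. With air ventilation against control, 5 of 9 genes rose and 0 fell, against 1.95% of all genes that rose and 1.95% that fell. In 4 of 9 the air ventilated and control mice did not overlap, against 6.47% of all genes. In H2S against air ventilation, 0 of 9 passed, 1 had an unadjusted p under 0.05 and 0 passed in the methods' t-test (CyberT). For that comparison 0.0702% of all genes rose, 0.01% fell and 1.28% did not overlap, and 0 of the 9 genes had groups that did not overlap.

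The median log2 difference of the 9 genes was 0.31 with H2S ventilation against control, where the median of all genes was -0.0037. With air ventilation it was 0.29, where that of all genes was 0.0083, and between H2S and air ventilation it was 0.060, where that of all genes was -0.0059. Both comparisons with control draw on 1 set of 5 control mice, so they are not independent of each other. The study required an effect size of at least 1.7, which is read here as a fold. At that fold 0 of the 9 genes were called in any comparison, since their differences were smaller than that. In whole lung tissue, fewer cells of a type and less RNA per cell cannot be told apart. Each limma p-value sets a difference of group means against the spread of mice within groups. That spread is pooled over the 3 groups and drawn toward that of all rows.

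**Figure D2:**
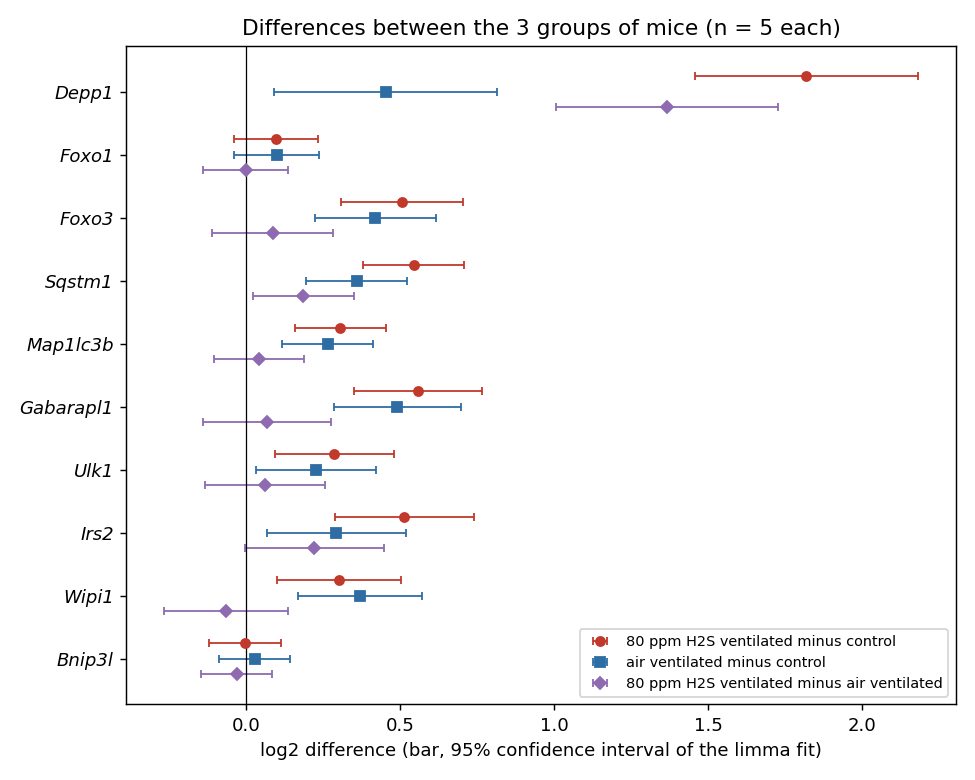
Log2 difference of each gene (horizontal axis) for H2S ventilation minus control (red circles), air ventilation minus control (blue squares) and H2S minus air ventilation (purple diamonds), with 95% confidence intervals of the limma fit over 15 mice. Depp1 has differences of 1.82, 0.45 and 1.37, while the differences of the other 9 genes from control end at 0.56 and their differences between H2S and air ventilation lie between -0.07 and 0.22. The Depp1 intervals are a description and no test, since the gene was selected on these values.

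Of the FoxO factors, Foxo3 passed in both comparisons with control and Foxo1 in none, and the difference between the genes was not tested. Foxo3, which drives autophagy genes in skeletal muscle, rose in both ventilated groups. Its intensities were 1335, 1356, 1469.7, 1479 and 1513 in H2S ventilated mice, 1267, 1289, 1325, 1373 and 1490.2 in air ventilated mice, and 796, 957, 1069.7, 1121 and 1134 in control mice. Every ventilated mouse of either kind lay above every control, and the ventilated groups overlapped. The log2 difference from control was 0.50 with H2S (SE 0.09, adjusted p = 0.00343) and 0.42 with air (SE 0.09, adjusted p = 0.0184). H2S and air ventilation differed by 0.09, with a 95% confidence interval of -0.11 to 0.28. The call with air was lost without the control mouse labelled 6_5 (0.40, adjusted p = 0.0518) and without the air ventilated mouse labelled 35_26 (0.38, adjusted p = 0.0566).

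Foxo1, the factor best known for control of glucose production in liver, did not pass in any comparison. It had intensities of 926, 1041, 1047, 1054 and 1065 in H2S ventilated mice, 988, 998, 1014, 1065 and 1072 in air ventilated mice, and 883, 949.6, 961, 984 and 1025 in control mice. All 3 groups overlapped, and the H2S ventilated mouse labelled 27_28, at 926, lay apart from the other 4 of its group. The log2 differences from control were 0.10 with H2S (adjusted p = 0.471) and 0.10 with air (adjusted p = 0.596), each with an SE of 0.06. For H2S against air ventilation it was -0.0022, with a 95% confidence interval of -0.14 to 0.14.

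Irs2, the adaptor that carries insulin and IGF-1 receptor signals to PI3 kinase and a FoxO target itself, rose with H2S ventilation. Its intensities were 497, 531, 562, 569 and 694 in H2S ventilated mice, 399, 472, 489, 518 and 573 in air ventilated mice, and 362, 372, 397, 405 and 457 in control mice. All H2S ventilated mice lay above all controls, whereas the air ventilated mouse labelled 34_22 lay within the control range. Irs2 differed from control by 0.51 on the log2 scale with H2S (SE 0.11, adjusted p = 0.00674) and 0.29 with air (SE 0.11, adjusted p = 0.179). That one comparison passed and the other did not is no test of H2S against air, where the difference was 0.22 with a 95% confidence interval of -0.0052 to 0.45 (adjusted p = 0.883). With array weights the difference between air ventilation and control passed, at 0.33 (adjusted p = 0.0380).

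Of the genes that start an autophagosome, Ulk1, the kinase that AMPK activates and mTORC1 restrains, did not pass in any comparison. It had intensities of 865, 919, 948, 1003 and 1015 in H2S ventilated mice, 805, 894, 932, 937 and 991 in air ventilated mice, and 652, 699.7, 840.5, 857 and 865 in control mice. The controls split into 3 mice at the lower edge of the ventilated range and 2 mice, labelled 7_9 and 6_5, below it. The log2 difference from control was 0.29 with H2S (SE 0.09, adjusted p = 0.0687) and 0.23 with air (SE 0.09, adjusted p = 0.245). For H2S ventilation the adjusted p fell under 0.05 with array weights (0.0407), a variance trend (0.0485), dim rows left out (0.0444) or arrays centred on their median (0.0379).

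Wipi1, which binds the lipid PI3P on the growing membrane, had its highest mean with air ventilation. Its intensities were 469, 482, 512, 526 and 532 in H2S ventilated mice, 456, 489, 510.0, 594 and 603 in air ventilated mice, and 356, 389, 401, 428 and 479 in control mice. The ventilated groups overlapped the controls only through the control mouse labelled 12_21, at 479. Wipi1 differed from control by 0.37 on the log2 scale with air (SE 0.09, adjusted p = 0.0421) and 0.30 with H2S (SE 0.09, adjusted p = 0.0637). The mean with H2S was lower than that with air by a log2 difference of -0.07, with a 95% confidence interval of -0.27 to 0.13. The call with air was lost without any 1 of 10 mice (controls labelled 13_25, 5_1, 7_9 and 6_5, air ventilated mice 12_10, 35_26 and 6_2, H2S ventilated mice 15_20, 27_28 and 1_4), and over the 15 fits without 1 mouse its adjusted p ran between 0.0188 and 0.119. With H2S it was gained without the control mouse labelled 12_21 (0.36, adjusted p = 0.0302), and also with array weights (adjusted p = 0.0212), a variance trend (0.0496), dim rows left out (0.0407), arrays centred on their median (0.0458) or quantile normalization repeated (0.0308).

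Map1lc3b and Gabarapl1 encode members of the Atg8 family, small ubiquitin-like proteins that are joined to lipid on the autophagosome membrane. Gabarapl1 rose in both ventilated groups. Its intensities were 4221, 4259.8, 4659.5, 4846 and 5249.6 in H2S ventilated mice, 3884, 4348, 4569, 4642 and 4712 in air ventilated mice, and 2543, 3089, 3154, 3417 and 3644 in control mice. No ventilated mouse reached down to the control range. Gabarapl1 differed from control by 0.56 on the log2 scale with H2S (SE 0.10, adjusted p = 0.00239) and 0.49 with air (SE 0.10, adjusted p = 0.00993), and both calls held without any 1 of the 15 mice. The ventilated groups differed by 0.07, with a 95% confidence interval of -0.14 to 0.27.

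Map1lc3b had intensities of 3748, 3806, 3843, 4163 and 4442 in H2S ventilated mice, 3639, 3808, 3864, 4023 and 4075 in air ventilated mice, and 3020.3, 3085, 3217, 3385 and 3466 in control mice. Again every ventilated mouse lay above every control, and the ventilated groups overlapped. The log2 difference from control was 0.31 with H2S (SE 0.07, adjusted p = 0.0121) and 0.26 with air (SE 0.07, adjusted p = 0.0478), and it was 0.04 between H2S and air ventilation. A second row for Map1lc3b gave 0.30 with H2S (adjusted p = 0.0128) and 0.26 with air (adjusted p = 0.0510), so the call with air depended on the row. It was also lost without any 1 of 11 mice (controls labelled 12_21, 13_25, 7_9 and 6_5, air ventilated mice 11_6, 12_10, 35_26 and 6_2, H2S ventilated mice 15_20, 27_28 and 1_4), and over the 15 fits without 1 mouse its adjusted p ran between 0.0329 and 0.127.

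Of the cargo receptors, Sqstm1 rose in both ventilated groups and Bnip3l did not pass in any comparison. Sqstm1 encodes p62, which ties ubiquitin-marked cargo to Atg8 proteins and is broken down with it. Its intensities were 6291, 6670.3, 6778, 7300.3 and 7749 in H2S ventilated mice, 5643, 5775, 6251, 6371 and 6529.6 in air ventilated mice, and 4250.1, 4585, 4901, 4994 and 5123 in control mice. Both ventilated groups lay wholly above the controls, and the H2S ventilated mice were higher than the air ventilated mice in 23 of 25 pairs. The log2 difference from control was 0.54 with H2S (SE 0.08, adjusted p = 0.000693) and 0.36 with air (SE 0.08, adjusted p = 0.0155). Between H2S and air ventilation it was 0.18 (95% confidence interval 0.02 to 0.35), where the unadjusted p was 0.0298 and the adjusted p 0.760. The call with air was lost without the control mouse labelled 7_9 (0.35, adjusted p = 0.0504) and without the air ventilated mouse labelled 6_2 (0.33, adjusted p = 0.0518).

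Bnip3l encodes NIX, a receptor on mitochondria that is needed for their removal from maturing red blood cells. Its intensities were 6291, 6474, 6529, 6643 and 6797 in H2S ventilated mice, 6444, 6635, 6647, 6772 and 6962 in air ventilated mice, and 6469.9, 6481, 6492, 6657 and 6729.8 in control mice. All 3 groups overlapped. The log2 difference was -0.0045 between H2S ventilation and control (95% confidence interval -0.12 to 0.11) and 0.03 between air ventilation and control (95% confidence interval -0.09 to 0.14). A second row for Bnip3l gave 0.0027 with H2S and 0.05 with air.

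Within the label numbers 1 to 12 the log2 differences between H2S ventilation and control were 0.54 for Foxo3, 0.54 for Sqstm1, 0.37 for Map1lc3b, 0.64 for Gabarapl1 and 0.59 for Irs2. Within the numbers 20 to 28 they were 0.45 for Foxo3, 0.55 for Sqstm1, 0.21 for Map1lc3b, 0.43 for Gabarapl1 and 0.40 for Irs2. All 5 were above 0 in both runs. That sign was fixed in advance, since every H2S ventilated mouse lay above every control for these genes. In fits of 1 run alone, 3 of the 5 calls remained with the first run (Sqstm1, Gabarapl1 and Irs2) and 0 with the second, which holds 2 mice per group. A limma interaction term between group and run, read for the 9 genes other than Depp1 in 3 comparisons, did not pass in any. The smallest unadjusted p was 0.0538, for Ulk1 between H2S ventilation and control (adjusted p = 0.996).

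Other genes of the pathway were taken from 6 lists written by role. The autophagy machinery list held 38 measured genes, from the Ulk1 complex to the lipidation enzymes. Of these, 2 rose with H2S ventilation (Map1lc3b and Gabarapl1) and 3 with air ventilation (Wipi1 in addition), 0 fell in either, and the median log2 differences were 0.11 and 0.12. Atg101, a subunit of the Ulk1 complex, came closest among the other machinery genes, with log2 differences of 0.32 with H2S (adjusted p = 0.0557) and 0.36 with air (adjusted p = 0.0525). Atg101 passed in both comparisons with array weights, a variance trend, dim rows left out, arrays centred on their median or quantile normalization repeated. The machinery genes that rose were 5.26% of the list with H2S, against 4.68% of all genes, and 7.89% with air, against 1.95%. All of them were among the 4 members of the set in this list, so these shares repeat the result of the set.

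Of 16 measured autophagy receptors, 3 rose and 0 fell in each comparison with control (Sqstm1, Bnip3 and Retreg1), or 18.8% of the list against 4.68% of all genes that rose with H2S and 1.95% with air. Sqstm1 is a member of the set and is counted again here. Bnip3, the close relative of Bnip3l and a gene induced by low oxygen, had intensities of 2104, 2699, 2779, 2933 and 3487 in H2S ventilated mice, 1736, 2146, 2203, 2474 and 3438 in air ventilated mice, and 1035, 1064, 1121, 1287 and 1414 in control mice. No ventilated mouse overlapped a control. Its log2 difference from control was 1.23 with H2S (SE 0.16, adjusted p = 0.000426) and 0.99 with air (adjusted p = 0.00412), and 0.24 between H2S and air ventilation (adjusted p = 0.997). Retreg1, a receptor for breakdown of the endoplasmic reticulum, differed from control by 0.61 with H2S (adjusted p = 0.00156) and 0.43 with air (adjusted p = 0.0233). Tollip did not pass, at 0.22 with H2S (adjusted p = 0.0644) and 0.16 with air (adjusted p = 0.280).

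Of 24 measured lysosome and TFEB genes, 2 rose (8.33%, against 4.68% of all genes) and 0 fell with H2S ventilation. These were Flcn, which acts on Rag GTPases at the lysosome (0.48, adjusted p = 0.0120), and Ctsl, the protease cathepsin L (0.27, adjusted p = 0.0310). With air ventilation 0 of the 24 passed, of which 3 had an unadjusted p under 0.05, and Flcn differed from control by 0.27 (adjusted p = 0.236) and Ctsl by 0.22 (adjusted p = 0.130). Rragd, a Rag GTPase, did not pass, although all H2S ventilated mice (159.96 to 214) lay above all air ventilated mice (128.5 to 145), with a log2 difference of 0.37 (adjusted p = 0.247). Of all genes, 1.28% did not overlap in that comparison. The row was dim, with all air ventilated and control mice below the median intensity of every array. Its log2 mean was 7.46 with H2S, 7.09 with air and 7.20 in controls.

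Of 24 measured FoxO factors and regulators, 5 rose with H2S ventilation (Foxo3, Irs2, Sgk1, Sirt1 and Mdm2) and 1 fell (Stk4), while 2 rose (Foxo3 and Sirt1) and 0 fell with air ventilation. The share that rose was 20.8% with H2S and 8.33% with air, against 4.68% and 1.95% of all genes. Foxo3 and Irs2 are members of the set and are counted again here. Sirt1, a deacetylase that acts on FoxO proteins, had intensities of 685, 691, 723, 833 and 869 in H2S ventilated mice, 639.6, 678, 719.9, 761 and 783 in air ventilated mice, and 515, 520.0, 534, 545 and 613 in control mice. Both ventilated groups lay above the controls, by 0.47 with H2S (adjusted p = 0.00334) and 0.39 with air (adjusted p = 0.0184). Stk4, the kinase MST1 that phosphorylates FoxO factors under oxidative stress, fell by 0.37 on the log2 scale with H2S (adjusted p = 0.00626) and differed from control by -0.20 with air (adjusted p = 0.203). Sgk1 and Mdm2, a kinase and a ubiquitin ligase that act against FoxO proteins, rose with H2S by log2 differences of 0.37 (Sgk1, adjusted p = 0.0244) and 0.24 (Mdm2, adjusted p = 0.0445). The call of Mdm2 was lost with quantile normalization repeated and with the label numbers in runs of 4 as a block.

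FoxO target genes moved in both directions. Of 32 measured besides Depp1, 5 rose, Irs2 among them, and 2 fell with H2S ventilation, and 5 rose and 3 fell with air ventilation. The share that rose was 15.6% in both comparisons, against 4.68% of all genes with H2S and 1.95% with air, and the share that fell was 6.25% with H2S and 9.38% with air, against 4.07% and 1.95%. Gadd45a, a growth arrest and DNA damage gene, Pdk4, which restrains pyruvate dehydrogenase, Fbxo32, a ubiquitin ligase of muscle wasting, and Eif4ebp1, a brake on translation, rose in both. Tnfsf10, the death ligand TRAIL, and Angpt2, an endothelial growth factor, fell in both, and Sesn1 rose and Ccr7 fell with air ventilation. Pdk4 differed from control by 1.44 with H2S (adjusted p = 0.000381) and 1.29 with air (adjusted p = 0.00235), and Tnfsf10 by -1.53 with H2S (adjusted p = 0.00244) and -1.24 with air (adjusted p = 0.0160).

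Of these 32 FoxO target genes, 1 passed between H2S and air ventilation, Gadd45a, which was higher with H2S. It had intensities of 445, 494, 521, 526 and 656 in H2S ventilated mice, 243, 256, 269.6, 285 and 308 in air ventilated mice, and 207, 208, 210.3, 212 and 219 in control mice. The 3 groups did not overlap. Its log2 difference was 0.95 between H2S and air ventilation (SE 0.09, adjusted p = 0.000165), 1.31 between H2S ventilation and control (SE 0.09, adjusted p = 3.18e-06) and 0.36 between air ventilation and control (SE 0.09, adjusted p = 0.0426). In the other 5 lists 0 genes passed between H2S and air ventilation in limma with all arrays weighted alike. Among all 19934 genes, 0.0702% rose and 0.01% fell in that comparison, so 0 calls in lists this short say little about them. The genes with an unadjusted p under 0.05 numbered 0 of 38 in the machinery, 1 of 16 among receptors and 2 of 24 among lysosome and TFEB genes. They were 1 of 24 among FoxO factors and regulators, 6 of 32 among FoxO target genes (Gadd45a included) and 5 of 23 among mTORC1, AMPK and sestrin genes. The share of all genes at that unadjusted p was not counted.

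Of the 23 measured mTORC1, AMPK and sestrin genes, which sense nutrients and stress upstream of autophagy, 4 rose with H2S ventilation (Sesn2, Prkab1, Eif4ebp1 and Rragc) and 3 with air ventilation (Sesn1, Sesn2 and Eif4ebp1), and 0 fell in either. These were 17.4% of the list with H2S and 13% with air, against 4.68% and 1.95% of all genes. Sesn2, a stress-induced inhibitor of mTORC1, had intensities of 514, 594, 655, 698 and 754 in H2S ventilated mice, 459, 472, 495, 499 and 558 in air ventilated mice, and 351, 352, 359, 386 and 421 in control mice. Its ventilated groups lay above the controls and overlapped each other, with a log2 difference from control of 0.77 with H2S (adjusted p = 0.000312) and 0.41 with air (adjusted p = 0.0283), and 0.36 between H2S and air ventilation (adjusted p = 0.330). Prkab1, a subunit of the energy sensor AMPK, had intensities of 2166, 2289, 2332, 2456 and 2756 in H2S ventilated mice, 1732, 1762, 1863, 1977 and 2075 in air ventilated mice, and 1753, 1785, 1815, 1869.5 and 1991 in control mice. All H2S ventilated mice exceeded all others, while the air ventilated mice spanned the control range. Of all genes, 1.28% did not overlap between H2S and air ventilation. The log2 difference of Prkab1 was 0.38 between H2S ventilation and control (adjusted p = 0.00656), 0.35 between H2S and air ventilation (adjusted p = 0.171) and 0.03 between air ventilation and control. With array weights Prkab1 also passed between H2S and air ventilation.

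**Figure D3:**
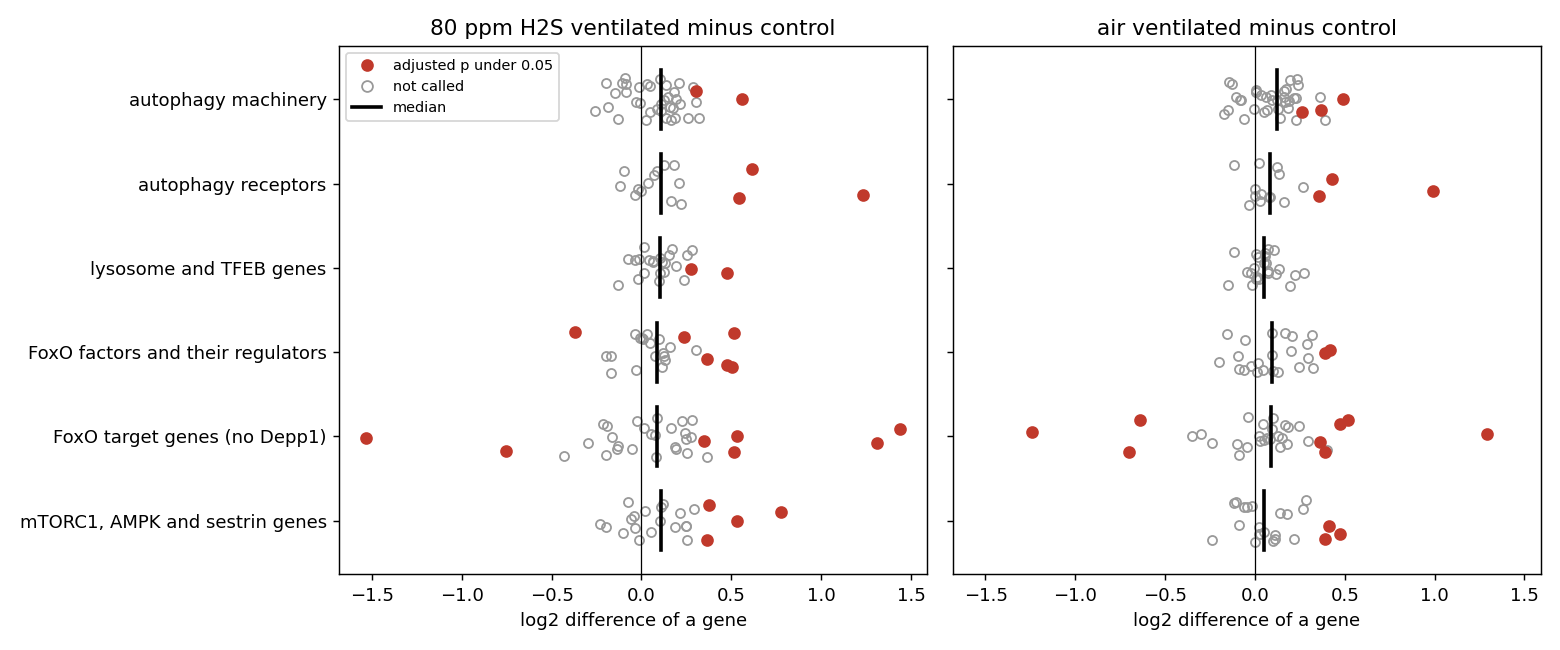
Log2 difference of every measured gene of the 6 pathway lists other than Depp1 (horizontal axis, vertical scatter only to separate points), with H2S ventilation minus control on the left and air ventilation minus control on the right. Filled red points passed at an adjusted p under 0.05, open points did not, and black bars are list medians, which lie between 0.05 and 0.12, where the median of all genes was -0.0037 with H2S and 0.0083 with air.

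The 8 genes whose log2 intensities were most like those of Depp1 over the 15 mice had a Pearson r of 0.94 to 0.95, given as a description, since the 15 values share 3 group means. After each group mean was subtracted, r ranged between 0.44 for Plk3 and 0.82 for Sh3pxd2b. Plk3, a stress-responsive polo-like kinase, Atf4, the transcription factor of the integrated stress response, Hes1, a repressor downstream of Notch, and Ppargc1a, the coactivator of mitochondrial genes, were among them. The others were Sh3pxd2b, an adaptor of podosomes, Foxj3, a forkhead factor outside the FoxO family, Pvr, the cell adhesion receptor CD155, and Noct, a rhythmic phosphatase. Their log2 differences between H2S ventilation and control were 1.64 for Plk3, 0.57 for Sh3pxd2b, 0.56 for Atf4, 0.74 for Hes1, 0.25 for Foxj3, 0.80 for Pvr, 2.33 for Ppargc1a and 1.28 for Noct. Between H2S and air ventilation they were 1.15 for Plk3, 0.36 for Sh3pxd2b, 0.34 for Atf4, 0.63 for Hes1, 0.20 for Foxj3, 0.48 for Pvr, 2.22 for Ppargc1a and 1.08 for Noct. The other 9 genes of the set were not among these 8.

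**Figure D4:**
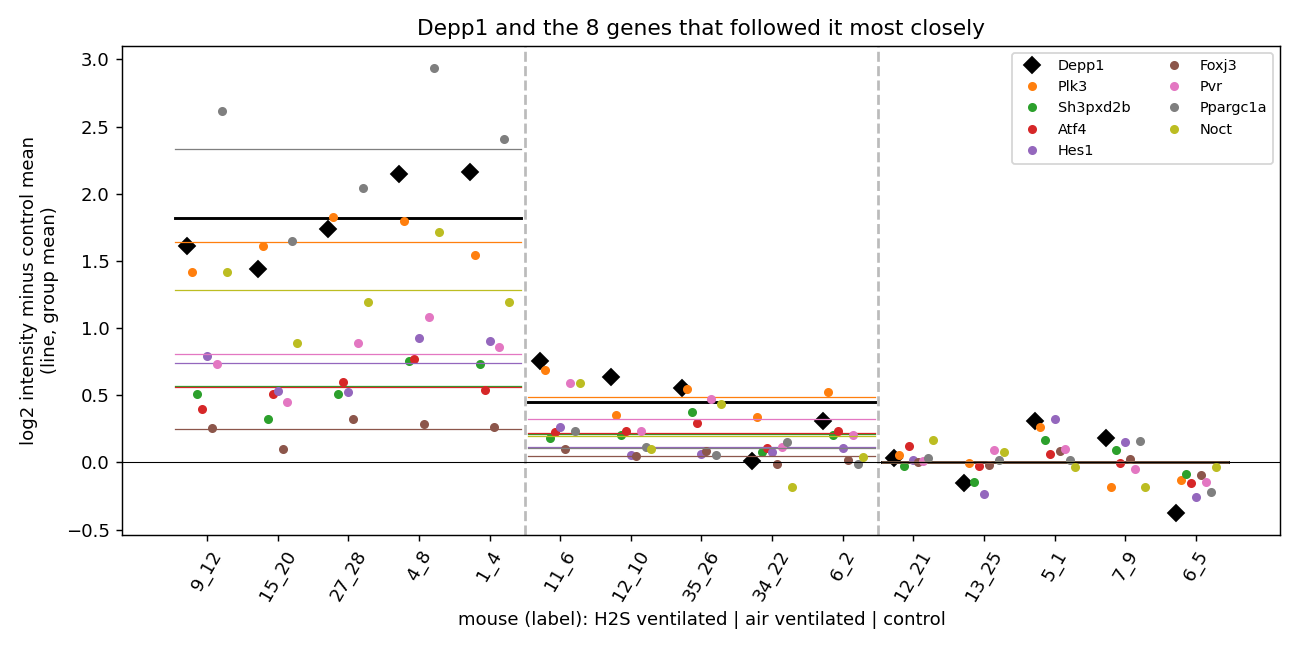
Log2 intensity minus the mean of the 5 control mice (vertical axis) for Depp1 (black diamonds) and the 8 genes most like it (coloured points) in each mouse, named by its label, with H2S ventilated mice left, air ventilated mice in the middle and control mice right. Horizontal lines are group means, which for Depp1 are 1.82 with H2S and 0.45 with air, and for Ppargc1a 2.33 with H2S and 0.11 with air.

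Some markers of several cell types passed with ventilation as well. Among all 19934 genes, 4.68% rose and 4.07% fell with H2S against control, and 1.95% rose and 1.95% fell with air. A call of 1 gene in lists this short is not read as a shift of a cell type. B cell markers fell in 9 of 9 genes in both ventilated groups, and their mean log2 level ranged between 6.98 and 7.75 in H2S ventilated mice, 7.05 and 8.09 in air ventilated mice and 8.20 and 8.95 in control mice. Endothelial markers fell in 3 of 10 genes with H2S (Tek, Kdr and Tie1) and 2 of 10 with air (Tek and Kdr), with mean log2 levels of 11.39 to 11.56 in H2S ventilated mice, 11.41 to 11.61 in air ventilated mice and 11.63 to 11.82 in control mice. Neutrophil markers rose in 3 of 10 genes with H2S (Retnlg, Cxcr2 and Mmp8) and 2 of 10 with air (Retnlg and Mmp8), with mean log2 levels of 9.32 to 10.19 in H2S ventilated mice, 9.61 to 10.03 in air ventilated mice and 8.99 to 9.71 in control mice. Alveolar macrophage markers rose in 3 of 9 genes with H2S (Marco, Mrc1 and Krt79), and with air 1 rose (Mrc1) and 1 fell (Fabp1), with mean log2 levels of 9.09 to 9.38 in H2S ventilated mice, 8.98 to 9.14 in air ventilated mice and 8.82 to 9.02 in control mice. Of the other lists, T cell markers fell in 1 of 9 genes in both ventilated groups (Cd2). With H2S, 1 of 8 alveolar type II markers (Abca3), 1 of 6 alveolar type I markers (Rtkn2), 2 of 7 airway markers (Tppp3 and Dnah5) and 1 of 5 smooth muscle markers (Acta2) fell. The markers of fibroblasts (6 genes) and red blood cells (2 genes) passed in no comparison. The part of these shifts in the differences of Foxo3, Sqstm1, Map1lc3b, Gabarapl1 and Irs2 from control was not tested. Between H2S and air ventilation, where Depp1 differed by 1.37, 0 markers of any of the 11 lists passed in limma. Of all genes, 0.0702% rose and 0.01% fell in that comparison. The most with an unadjusted p under 0.05 in a list were 3 of 6 alveolar type I markers and 3 of 9 alveolar macrophage markers. The share of all genes at that unadjusted p was not counted. The median log2 difference between H2S and air ventilation was 0.16 over the macrophage markers and 0.0011 over the alveolar type I markers. The part of these shifts in the difference of Depp1 was not tested.

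**Figure D5:**
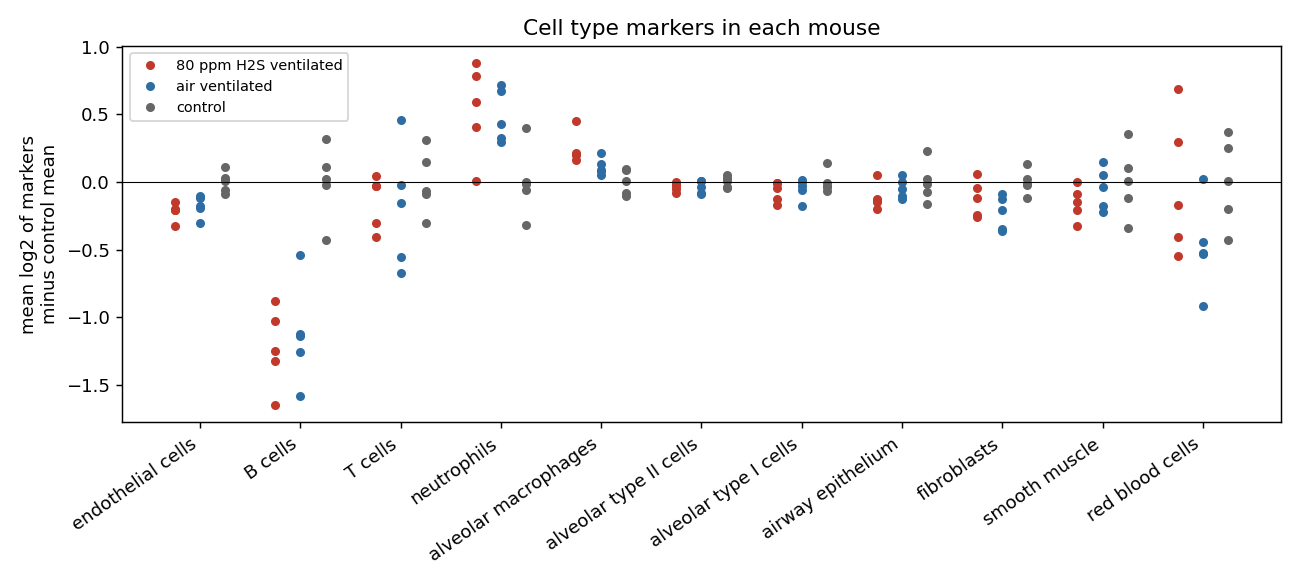
Mean log2 level of the measured markers of 11 cell types minus the mean of the 5 control mice (vertical axis), 1 point per mouse, with H2S ventilated mice in red, air ventilated mice in blue and control mice in grey. The B cell mean of every ventilated mouse lies below that of every control mouse, while the alveolar type II means of the 3 groups overlap.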

How the data were processed

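Expression was measured in 15 mice, 5 per group, with 1 Affymetrix whole-transcript array each. The table as deposited holds linear intensities: the authors subtracted a background measured on anti-genomic probes of matching GC content, applied quantile normalization between arrays and summarised probes by RMA, which the submitters' processing notes name too. Quantile normalization gives every array nearly the same distribution, so a shift of all genes together would not be seen. Of 28361 rows, 21780 had 1 gene symbol in the platform table, 1617 had several and 4964 had none. Scripts took log2 of the intensities, where the design had allowed for log2 values, and fitted all 15 arrays with limma 3.58.1 in R 4.3.3 with no covariate. P-values were adjusted by Benjamini-Hochberg over all 28361 rows, and a gene was called at an adjusted p under 0.05. Plots used Python 3.11.15 and matplotlib 3.10.9.

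The members and lists were chosen with earlier results of these data known. Named genes were every member, up to 4 genes of each pathway list with the smallest adjusted p, and the 8 genes with the highest r with Depp1. List genes given beside those by name are the remaining ones that passed. The alternatives were array weights, a variance trend, a fit of only the groups compared, CyberT (confidence 15, window 101), the mean of a gene's rows, dim rows left out, arrays centred on their median, quantile normalization repeated, the label numbers as a block or alone, runs of 4 label numbers as a block (added after the data were seen), the study's thresholds (p of at most 0.005, adjusted p of at most 0.1, fold of at least 1.7) and leaving out each mouse. The study states its 1.7 as an effect size, and it was read here as a fold and applied with limma p-values. Precision is limited by the 5 arrays per group.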

Additional observations from a re-analysis of the deposited data

Results flagged for a closer look

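Of 30 groups of 5 values (10 genes in 3 groups), 1 held a value set far from the rest by Dixon's ratio of gap to range, where chance marks about 1 in 20. Foxo1 had an intensity of 926 in the H2S ventilated mouse labelled 27_28, whereas the other 4 mice of that group lay between 1041 and 1065, and the gap on the log2 scale was 0.834 of the range against a critical value of 0.71. Without that mouse the log2 difference of Foxo1 between H2S ventilation and control was 0.13, and the gene still did not pass.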

How the results depend on the processing

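Depp1 kept its direction under every alternative run for it, and without 1 mouse its log2 difference ran between 1.73 and 1.91 for H2S ventilation against control, 1.26 and 1.46 for H2S against air ventilation, and 0.36 and 0.56 for air ventilation against control. Since Depp1 was selected for its high values with H2S in these same mice, the kept direction is a description and carries no test. Of the other 9 genes, 5 were called with H2S ventilation. With array weights, a variance trend, dim rows left out or arrays centred on their median 7 were called (Ulk1 and Wipi1 in addition), and 6 with quantile normalization repeated (Wipi1 in addition). Without 1 mouse 5 to 6 were called, with label numbers 1 to 12 alone 3, with numbers 20 to 28 alone 0 and at the study's thresholds 0. With air ventilation 5 were called, and 6 with array weights (Irs2 in addition). Without 1 mouse 2 to 5 were called, 2 of them without the control mouse labelled 7_9 or 6_5 or the air ventilated mouse labelled 35_26 or 6_2. In a fit of only those groups 2 were called (Sqstm1 and Gabarapl1), and 0 with numbers 1 to 12 alone, with numbers 20 to 28 alone or at the study's thresholds. Between H2S and air ventilation 0 were called in any of these. Fits of fewer mice have fewer degrees of freedom, and the study's thresholds, as read here, ask for a larger fold. Pathway genes outside the set that passed numbered 17 with H2S, 12 with air and 1 between H2S and air ventilation, and with array weights 28, 24 and 2 (Gadd45a and Prkab1). In the main fit 4.68% of all genes rose and 4.07% fell with H2S, and 1.95% rose and 1.95% fell with air. Between H2S and air ventilation 0.0702% rose and 0.01% fell. The lists overlap, and the number of different pathway genes outside the set is not given, so no share of them is set against these. The share of all genes with array weights was not counted, so the larger numbers are not read as a result about the pathway. Their cause was not tested.

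Signs turned only in differences near 0 that were not called. Bnip3l between H2S ventilation and control was 0.0115 with array weights, 0.0252 with arrays centred on their median, 0.0244 with numbers 20 to 28 and -0.0182 to 0.0098 without 1 mouse. It was -0.0058 between air ventilation and control with quantile normalization repeated, and 0.0090 between H2S and air ventilation with numbers 20 to 28. Foxo1 between H2S and air ventilation was 0.0057 with centred arrays, 0.0389 with numbers 1 to 12 and -0.0160 to 0.0346 without 1 mouse, and between H2S ventilation and control -0.0109 with numbers 20 to 28. With numbers 20 to 28, Map1lc3b and Ulk1 differed by -0.00997 and -0.0675 between H2S and air ventilation. The 2 sets of numbers as a block ended no call among the 9 genes.

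The groups share no replicate number in the labels, but the numbers could be read as runs of 4 (1 to 4, 5 to 8 and so on) that hold at most 1 mouse of each group. This replicate block was added after the data were seen. All mice of a group held the same place within their runs, so place and group cannot be told apart, with or without the block. Mice of different groups in the same run had deviations from their group means that correlated by 0.13 on average over 13 pairs (range -0.27 to 0.34, over 0.1 in 9 pairs). Pairs from other runs correlated by -0.027 on average over 62 pairs (range -0.45 to 0.46, over 0.1 in 15 pairs). Of 14 mice, 3 correlated best with one of their own run. The labels state no pairing, so the main fit held no such block, and whether the runs pair the mice was not tested. With this block 5 of the 9 genes were called with H2S ventilation, 3 with air ventilation (Foxo3, Sqstm1 and Gabarapl1) and 0 between H2S and air ventilation. The H2S ventilated mouse labelled 15_20 is alone in its run and adds nothing to these differences. The Depp1 differences were 1.86, 0.45 and 1.41 for H2S against control, air against control and H2S against air ventilation.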
